A study of Homo sapiens with 10 samples.

Results

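The genes for the proteins of the mitochondrial ribosome (mitoribosome) were followed in U266 cells, an established line of human multiple myeloma that the labels describe as plasma cells. Members were the genes of the raw count table whose symbol starts with MRPL or MRPS and continues with a number and at most a letter A or B. The rule found 77 of the 60574 genes of the table, 28 with an MRPS symbol (small subunit) and 49 with an MRPL symbol (large subunit). RNA was measured in 10 libraries. All cells carried a lentivirus for dCas9-VPR, a nuclease-dead Cas9 fused to domains that activate transcription. The 5 libraries of the EFNB2 guide (gRNA2 in the labels) came from cells that also carried a guide RNA aimed at the start of EFNB2, the gene of the membrane protein ephrin-B2. The 5 control libraries (cgRNA) came from cells with a scrambled guide that has no target. Both groups were selected and kept in puromycin and blasticidin, and neither had a further treatment. Libraries carry the letters A to E in each group. Separate transductions or cultures are not named in the labels. The p-values therefore cover the spread among the libraries at hand, which may be technical.

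The mitoribosome translates the few messenger RNAs that are made from mitochondrial DNA, all of them for subunits of the respiratory chain and the ATP synthase. Its ribosomal RNAs also come from mitochondrial DNA, but every one of its proteins is encoded in the nucleus, made in the cytosol and imported. Some of these proteins descend from proteins of the bacterial ribosome, and others are found only in mitochondria. The small subunit reads the messenger RNA, and the large subunit forms the peptide bond and releases the chain through a tunnel that opens at the inner membrane.

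Totals ran from 47268072 to 56513548 counts per library, and 3 counts were worth 0.0537 to 0.0627 CPM (counts per 1e6 counts of the scaled library). EFNB2 itself was at 0.955, 1.12, 1.25, 1.5 and 1.21 CPM with its guide and at 0.17, 0.136, 0.143, 0.11 and 0.0365 CPM in the control libraries A to E, so the libraries matched their labels (log2 fold change 3.32, SE 0.25, adjusted p = 4.68e-08). Of 7 plasma cell markers (SDC1, TNFRSF17, IRF4, PRDM1, XBP1, MZB1 and CD38) all were detected, with summed levels of 3481 to 3722 CPM with the EFNB2 guide and 3989 to 4619 CPM in the controls, 2 of them higher and 3 lower. Lists of 5 markers each for B cells (0.615 to 1.16 CPM with the EFNB2 guide, 0.662 to 1.08 CPM in the controls), T and NK cells (3.64 to 4.25 and 3.98 to 5.8 CPM), myeloid cells (2.47 to 3.4 and 2.06 to 2.58 CPM) and stromal or epithelial cells (24.3 to 28.5 and 17.5 to 23.4 CPM) summed to far less. MS4A1, CD3D, LYZ, CSF1R, CD68, COL1A2 and EPCAM were below 0.1 CPM in every library. COL1A1 was higher with the EFNB2 guide (24.6 against 17.4 CPM) and made up most of its list. It lay above the plasma cell markers MZB1 (3.54 against 5.57 CPM) and CD38 (8.03 against 1.78 CPM). CD14 was higher (0.287 against 0.0782 CPM) and CD8A lower (0.69 against 1.15 CPM). CD3E (2.85 against 3.21 CPM) and ITGAM (2.37 against 2.17 CPM) were also detected. Whether these differences have a part in the values of the members was not tested.

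Short sequences were searched at the starts of the members, because the rule did not use them. Some were more frequent there than in tested genes, and others were not. RefSeq promoters (GRCh38.p14, from 250 bases before to 50 bases after the start) matched 68 members. MRPL10, MRPL13, MRPL15, MRPL2, MRPL21, MRPL23, MRPL35, MRPS28 and MRPS36 were not matched. The letters AAGATGGCG, which are bound by the zinc finger factor YY1 and were searched on both strands, stood in 13 of the 68 (19.1%), against 3.9% of the 10989 promoters of tested genes and 1.85% of all 27305 promoters in the table. The letters CCGGAAG, a form of the site of ETS factors such as GABPA, stood in 28 of the 68 (41.2%), against 18.9% and 10.7%. CTACANNTC, part of the site of ZNF143, was in 9 (13.2%, against 5.51% of tested genes). CGCNTGCG, the core of the site of NRF1, was in 12 members (17.6%, against 18.4% of tested genes), GGGCGGG, a site of SP factors, was in 34 (50%, against 52.1%), and CACGTG, the E-box bound by MYC, was in 5 (7.35%, against 10.1%). The CCAAT box was in 19 members (27.9%, against 37.3%) and TGACGTCA, a cyclic AMP response element, in 0 (against 3.16%). TATAAA, the TATA box, was in 2 (2.94%, against 5.84%). All were searched on both strands of the 300 bases and may overlap each other, and a match is a description of letters, not of binding. Of the 27 matched members that fell with the EFNB2 guide, 8 held CCGGAAG and 6 held AAGATGGCG. Among the 7 that rose, 2 and 1 did, and among all 68 matched members, 28 and 13 did. CCGGAAG thus stood in a smaller share of the members that changed than of all matched members, a difference that was not tested.

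The windows of 30 bases around AAGATGGCG are printed for the 7 members that hold it and changed with the EFNB2 guide, on the strand of the gene, with the 9 letters (or their complement) in capitals. In 10 of the 13 members the letters began after the RefSeq start, and over all 13 they began between base -223 and base 36, counted from the first transcribed base as 1. In 9 of the 13 the ATG inside the letters was an annotated start codon in GENCODE 29, so these letters are at once promoter and coding sequence. The first is MRPL46, which rose, and the others fell.
MRPL46, chr15:88467361-88467390, minus strand: gggagaacgaAAGATGGCGgcgcccgtaag
MRPS18B, chr6:30617853-30617882, plus strand: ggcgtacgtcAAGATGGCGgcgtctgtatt
MRPS30, chr5:44808950-44808979, plus strand: atcgcgggcaAAGATGGCGgcggccaggtg
MRPL50, chr9:101398576-101398605, minus strand: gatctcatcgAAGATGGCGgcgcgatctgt
MRPL42, chr12:93467512-93467541, plus strand: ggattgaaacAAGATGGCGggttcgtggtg
MRPL36, chr5:1799854-1799883, minus strand: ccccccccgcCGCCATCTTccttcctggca
MRPL32, chr7:42932143-42932172, plus strand: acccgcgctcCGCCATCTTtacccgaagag
MRPL46, MRPS18B, MRPS30 and MRPL50 had their annotated start codon inside the capitals. MRPL42, MRPL36 and MRPL32 did not, and in MRPL36 and MRPL32 the letters lay on the other strand, upstream of the start.

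Levels of the members spread widely around a common middle. The median member was at 47.3 CPM in the controls, against 12 CPM for all tested genes. Levels were also divided by the kilobases of annotated exon, merged over all transcripts of a gene (GENCODE 29, GRCh38). The quartiles of the members were 8.83 and 35 CPM per kb in the controls, and 55 of 77 were above 10. The medians were 15.3 for the small and 20.5 for the large subunit. Ranks on this scale depend on the annotated length: MRPL42, at 59.7 CPM in the controls, had 16393 exon bases and came to 3.64 CPM per kb. MRPS34, a mitochondria-specific protein of the small subunit (chr16:1771890-1773155), was highest at 123 CPM per kb, followed by MRPS16 (70), MRPL10 (67.3) and MRPS21 (61.8). Most proteins of the mitoribosome are present in equal number, while the RNA levels of the members covered several orders of magnitude at the low end. MRPL53 (0.00828 CPM per kb), MRPS24 (0.141), MRPL46 (0.514), MRPL38 (0.837) and MRPS28 (1.83) were lowest. Of these, all but MRPL46 were among the 7 members that share over 20% of their exon bases with another annotated gene on the same strand: MRPL12 (68.2%), MRPL53 (45.2%), MRPL38 (37.5%), MRPS28 (35.8%), MRPS24 (23.2%), MRPS17 (21.8%) and MRPL33 (21.1%). How reads in shared exons were counted is not given in the sources used here. MRPL12 (5.73 CPM per kb) and MRPS17 (4.22) were also below the lower quartile of 8.83, and MRPL33 was at 35. MRPL46 was low with 11.3% shared. The part of the overlap in the low values was not tested.

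**Figure D1:**
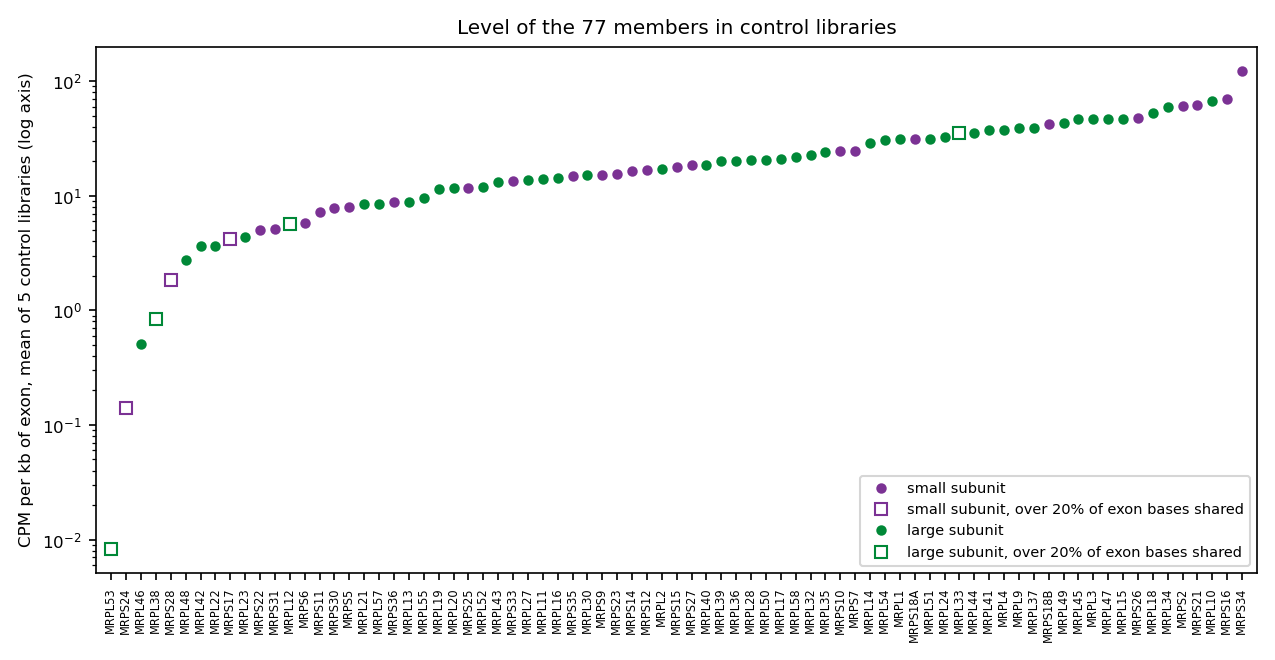
Level of each of the 77 members in CPM per kb of exon (log axis), mean of the 5 control libraries, in rising order. Filled circles are members of the small (purple) and large (green) subunit, and open squares are the 7 members that share over 20% of their exon bases with a gene on the same strand, which hold 4 of the 5 lowest places.

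MRPL53 (chr2:74471958-74473322), a mitochondria-specific protein of the large subunit, had 5 counts over the libraries of the EFNB2 guide and 3 over the controls, too few to be tested, while CCDC142, which covers 45.2% of its exons, had 14755 counts. MRPS24 (chr7:43866558-43869893), the counterpart of the bacterial protein S3 at the entry of the messenger RNA, was at 0.0735, 0.348, 0.397, 0.348 and 0.534 CPM with the EFNB2 guide and at 0.51, 0.175, 0.466, 0.349 and 0.346 CPM in the controls. The values of both guides were mixed, and its log2 fold change of -0.13 had an SE of 0.36. At this depth neither gene allows a statement on the guide.

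Over the tested members, more fell than rose, and nearly all changes were small. With the EFNB2 guide 30 of the 76 tested members were lower (39.5%) and 8 were higher (10.5%), where 22.6% of all 17834 tested genes were lower and 22.8% were higher. The remaining 38 did not pass the threshold, an adjusted p of 0.05. The median log2 fold change of the members was -0.06 (quartiles -0.16 and 0.01), against 0.01 for all tested genes, and 56 of 76 values were below 0. Among the 38 that changed, the median size was 0.17 on the log2 scale, and 34 changed by less than 1.25-fold. The libraries of the EFNB2 guide did not overlap with the controls in 29 members, against 30.3% of all tested genes. They lay below all controls in 24 (MRPL47 among them without passing the test), against 15.2% of all tested genes, and above them in 5, against 2684 of the 17834 tested genes. In bulk RNA fewer cells with a transcript and less of it per cell cannot be told apart. Over the settings of the analysis tried, the falls numbered 27 to 40 and the rises 4 to 11.

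**Figure D2:**
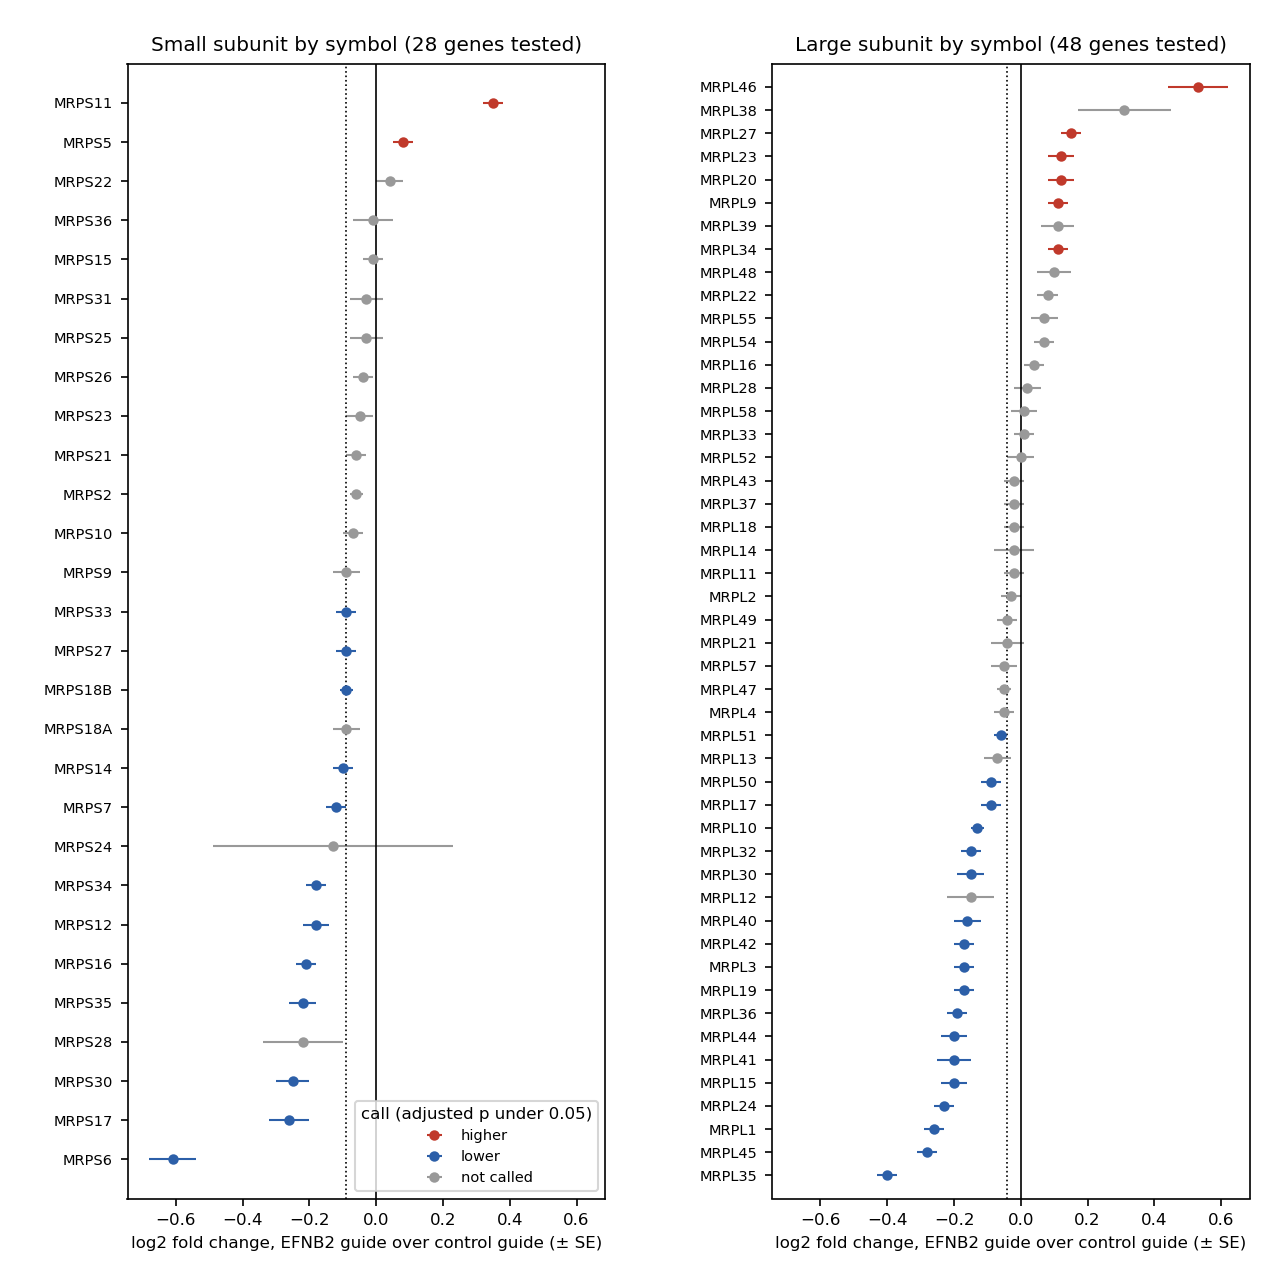
Log2 fold change of the 76 tested members (EFNB2 guide over control guide, bars are the SE of the fit), small subunit on the left and large subunit on the right, coloured by the call. Dotted lines mark the medians of -0.09 and -0.04, and the points run from -0.61 (MRPS6) to 0.53 (MRPL46).

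A pair of gene groups that work beside the mitoribosome gave other counts. Of 77 tested genes for proteins of the cytosolic ribosome, 68 were lower and 2 were higher (median log2 fold change -0.19). Of 76 nuclear genes for subunits of oxidative phosphorylation, which join the products of the mitoribosome in the inner membrane, 14 were lower and 8 higher (median -0.01). The mitoribosomal share of falls lay between theirs. The differences between these lists were not tested.

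By subunit, 12 of 28 small subunit members were lower and 2 higher (median log2 fold change -0.09), and 18 of 48 large subunit members were lower and 6 higher (median -0.04). Symbols do not wholly follow the structure: MRPS30 and MRPS18A sit in the large subunit, and MRPS36 is not a part of the mitoribosome but of an oxoglutarate dehydrogenase complex. With these moved or left out, 11 of 25 small and 19 of 50 large subunit members were lower, 2 and 6 were higher, and the medians were -0.09 and -0.05. MRPS30 was among the falls (log2 fold change -0.25, SE 0.05, adjusted p = 0.000346), and MRPS18A and MRPS36 did not pass (adjusted p = 0.0799 and 0.88).

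Summed over its 28 genes, the small subunit was at 1598, 1555, 1546, 1559 and 1549 CPM with the EFNB2 guide and at 1626, 1654, 1718, 1668 and 1662 CPM in the controls. The groups did not overlap, and the mean was 1561 ± 21.2 against 1666 ± 33.4 (SD, n = 5 each), a change of -6.26%. The 49 genes of the large subunit summed to 2508, 2424, 2394, 2443 and 2427 CPM with the EFNB2 guide and to 2492, 2549, 2656, 2583 and 2585 CPM in the controls. Here the A libraries crossed, and the mean was 2439 ± 42.5 against 2573 ± 59.8, a change of -5.19%. The ratio of small to large was 0.637 to 0.646 with the EFNB2 guide and 0.643 to 0.652 in the controls. These ranges overlapped, and the difference between the subunits was not tested.

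**Figure D3:**
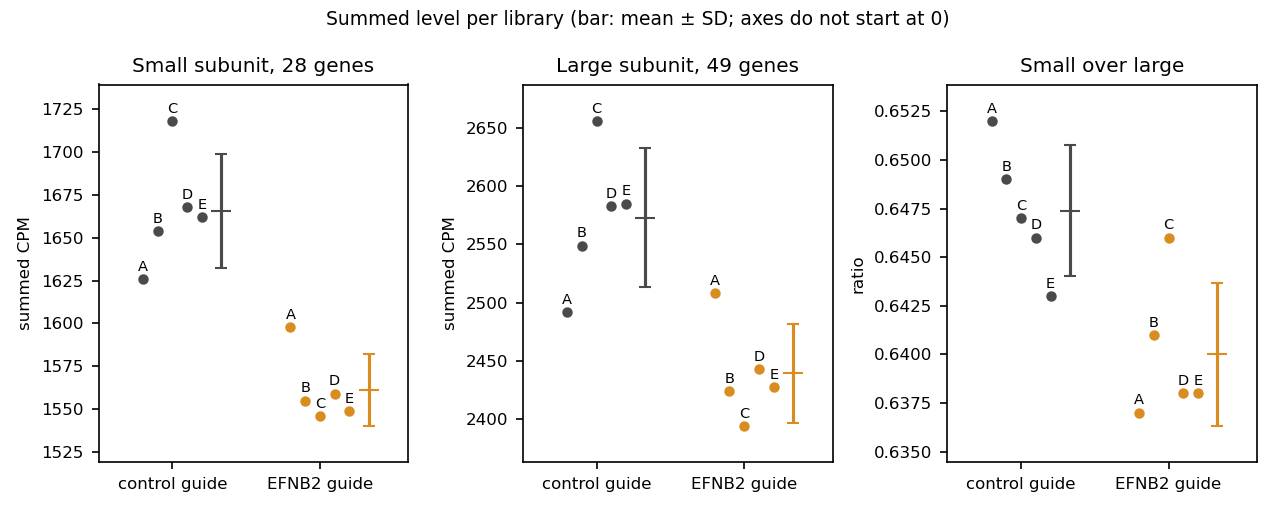
Summed CPM of the small subunit genes, of the large subunit genes, and their ratio in each library (letters), with mean ± SD of 5 libraries per guide beside the points. The sums of the EFNB2 guide differ from the controls by -6.26% and -5.19%, and library A of the EFNB2 guide (1598 and 2508) and library A of the controls (1626 and 2492) are the nearest to the other group.

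Among the 38 members that changed, library A was the EFNB2 library nearest to the controls in 26 and the control library nearest to the EFNB2 guide in 21. The same count was not made over all tested genes. Without both A libraries, 40 members were lower and 10 higher, and the median was -0.07. Calls over all genes rose too, to 9854 (4992 higher) from 8098 (4072 higher), so the gain was not particular to the members. The part of these libraries in the size of the differences was not tested beyond this.

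MRPS6 fell most. It is the counterpart of the bacterial protein S6, on the platform of the small subunit, and lies at chr21:34073224-34143034. Its level was 19.3, 15.4, 15.5, 17.1 and 14.4 CPM with the EFNB2 guide and 25.8, 23.2, 25.8, 24.4 and 25.7 CPM in the controls. All 5 libraries of the EFNB2 guide were below the lowest control (log2 fold change -0.61, SE 0.07, adjusted p = 1.89e-06). SLC5A3, which encodes a transporter of myo-inositol, starts close by and shares 6.35% of the exon bases of MRPS6 on the same strand. SLC5A3 was also lower, at 48, 45.1, 46.9, 44.2 and 44.7 CPM against 59.1, 62.9, 64, 72.6 and 68 CPM (log2 fold change -0.51, SE 0.05, adjusted p = 3.75e-07). It had 29235 counts in all libraries to the 10887 of MRPS6, so the 2 genes cannot be read as independent where they share exons.

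MRPL35, the counterpart of bacterial L35 (chr2:86199355-86213794), was next, at 74.8, 70.3, 68.6, 69.9 and 70.1 CPM with the EFNB2 guide and 91.3, 93.4, 98.1, 90.8 and 92.2 CPM in the controls. The groups were far apart for the spread within them (log2 fold change -0.40, SE 0.03, adjusted p = 4.4e-08). MRPL45, a mitochondria-specific protein at the exit of the peptide tunnel that helps to anchor the ribosome at the inner membrane (chr17:38297023-38323218), was at 70.4, 65.2, 61.9, 66.8 and 65.4 CPM against 76.8, 79.8, 79.9, 82.4 and 80.3 CPM. Library A was the highest with the EFNB2 guide and the lowest in the controls, and the groups still did not overlap (log2 fold change -0.28, SE 0.03, adjusted p = 5.7e-06). A transcribed copy, MRPL45P2, had 5052 counts to the 38269 of MRPL45 and was lower as well (-0.20, SE 0.05, adjusted p = 0.00231), and reads of near-identical copies could have been split between them.

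MRPL1, the counterpart of bacterial L1, which forms a mobile stalk (chr4:77862520-77952790), was at 50.5, 50.1, 49.9, 51.7 and 51 CPM with the EFNB2 guide and at 59.4, 61.7, 63.3, 59 and 58.9 CPM in the controls. Its libraries were tightly grouped (log2 fold change -0.26, SE 0.03, adjusted p = 2.37e-06). MRPS17, the counterpart of bacterial S17 (chr7:55951819-55956501), was low, at 8.36, 7.54, 7.09, 7.58 and 7.55 CPM against 8.66, 9.39, 9.82, 8.96 and 8.71 CPM. The nearest libraries, A of each guide, were close together (log2 fold change -0.26, SE 0.06, adjusted p = 0.00209). MRPL24, another protein near the tunnel exit (chr1:156737303-156741590), was at 47.7, 46, 46.9, 46.4 and 45.8 CPM against 50.9, 54.6, 57.8, 54.5 and 56.1 CPM. Again no library of the EFNB2 guide reached the controls (log2 fold change -0.23, SE 0.03, adjusted p = 3.08e-05).

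The promoter of MRPL24 held CTACANNTC at 2 places, both on the strand of the gene and shown in capitals in the 120 bases before its RefSeq start (chr1:156741089-156741208, minus strand).
MRPL24: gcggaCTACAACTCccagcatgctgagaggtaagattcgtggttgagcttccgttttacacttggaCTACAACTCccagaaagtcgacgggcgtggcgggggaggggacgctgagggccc
The members that held these letters were MRPL19, MRPL24, MRPL42, MRPL50, MRPL54, MRPS18A, MRPS22, MRPS25 and MRPS26. Of them 4 were lower (MRPL19, MRPL24, MRPL42 and MRPL50), 0 were higher and the others did not pass. This share of falls was close to that of all 68 matched members, of which 27 were lower and 7 higher.

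**Figure D4:**
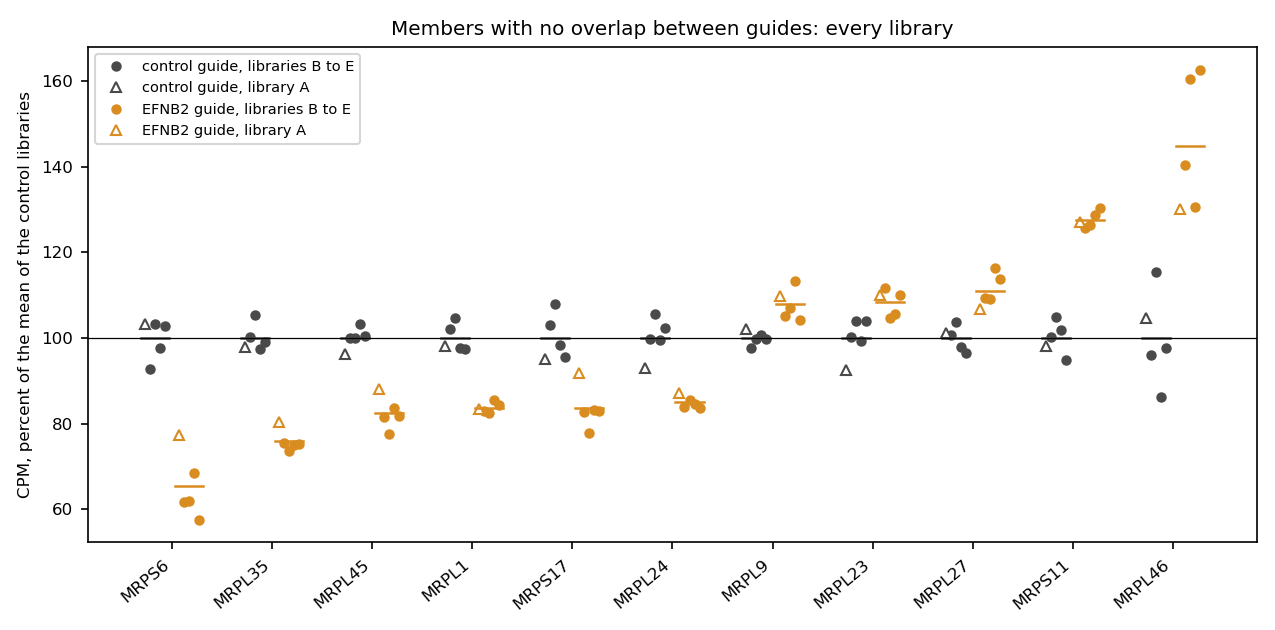
CPM of the 6 largest falls and all 5 rises without overlap between guides, each library as a percent of the mean of the 5 control libraries, horizontal bars are the means of 5 libraries. Open triangles are the A libraries. MRPS6 of the EFNB2 guide ran from 14.4 to 19.3 CPM against 23.2 to 25.8, and MRPL46 from 4.3 to 5.38 CPM against 2.85 to 3.82.

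The largest rises were a pair of neighbours. MRPL46, a mitochondria-specific protein of the central protuberance of the large subunit (chr15:88459476-88467419, minus strand), was at 4.3, 4.64, 5.31, 4.32 and 5.38 CPM with the EFNB2 guide and at 3.46, 3.18, 3.82, 2.85 and 3.23 CPM in the controls. The groups did not overlap (log2 fold change 0.53, SE 0.09, adjusted p = 0.000289). MRPS11, the counterpart of bacterial S11 in the platform of the small subunit (chr15:88467453-88480773, plus strand), was at 51.5, 50.9, 51.2, 52.2 and 52.8 CPM against 39.8, 40.6, 42.5, 41.3 and 38.5 CPM. This was the rise with the smallest p among the members (log2 fold change 0.35, SE 0.03, adjusted p = 1.93e-07). The pair stands head to head, with starts 34 bases apart in GENCODE 29 and 319 bases between the starts in RefSeq, and serves opposite subunits.

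The 120 bases before each RefSeq start are shown because they lie between the RefSeq starts of the pair. By the GENCODE 29 models they run into the genes themselves. None of the motifs searched stood in them, and the AAGATGGCG of MRPL46 lies just after its start.
MRPL46, chr15:88467389-88467508, minus strand: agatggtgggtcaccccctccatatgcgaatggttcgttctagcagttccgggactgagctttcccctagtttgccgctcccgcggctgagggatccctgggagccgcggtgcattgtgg
MRPS11, chr15:88467588-88467707, plus strand: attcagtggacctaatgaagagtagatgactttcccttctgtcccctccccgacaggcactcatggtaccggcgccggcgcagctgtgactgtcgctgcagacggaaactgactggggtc

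They were also the only members on chromosome 15, where 398 of 623 tested genes (63.9%) were higher and 4.33% were lower, with a median log2 fold change of 0.31. On the chromosomes of the other members the median of all tested genes lay between -0.03 and 0.05. Set against the median of their chromosome, MRPS11 (0.35) was close to it and MRPL46 (0.53) above it. Without these 2 genes the members counted 6 rises and 30 falls of 74. Whether the rise of the pair has a cause apart from its chromosome cannot be told from these libraries.

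**Figure D5:**
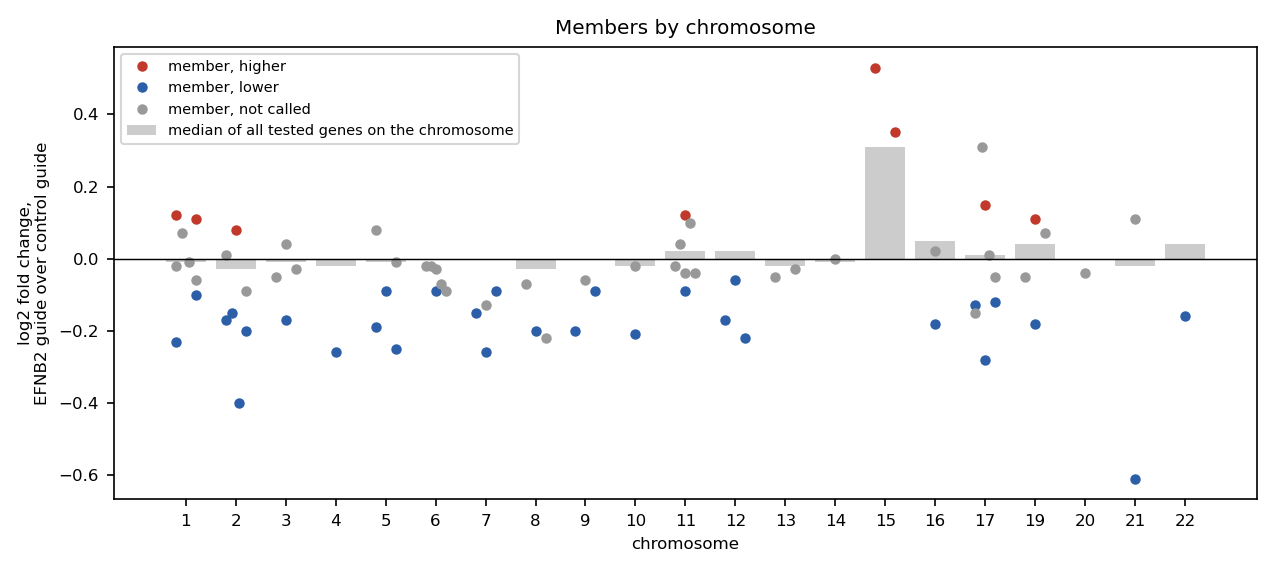
Log2 fold change of each tested member (points, coloured by call) by chromosome, over the median of all tested genes on that chromosome (grey bars from 0). Chromosome 15, with a median of 0.31, holds the 2 highest rises, MRPL46 and MRPS11, and on the other chromosomes the medians are between -0.03 and 0.05.

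Away from chromosome 15, 3 members rose with no overlap between guides. MRPL27, a counterpart of bacterial L27 close to the site where the peptide bond forms (chr17:50367857-50373214), was at 44.6, 45.7, 45.6, 48.6 and 47.5 CPM with the EFNB2 guide and 42.3, 42.1, 43.3, 40.9 and 40.3 CPM in the controls. The lowest EFNB2 library was just above the highest control (log2 fold change 0.15, SE 0.03, adjusted p = 0.00114). EME1, a partner of the DNA repair nuclease MUS81, starts 6 bases away on the other strand and was also higher (0.35, SE 0.08, adjusted p = 0.00286, 36.8 against 29 CPM). The RefSeq promoter of MRPL27 held CCGGAAG at 2 places, in capitals in the 120 bases before the RefSeq start of MRPL27 (chr17:50373185-50373304, minus strand). By the GENCODE 29 model the last of these bases lie within the gene.
MRPL27: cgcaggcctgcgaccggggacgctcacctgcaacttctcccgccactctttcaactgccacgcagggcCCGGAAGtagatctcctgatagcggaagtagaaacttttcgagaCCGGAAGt

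MRPL23, at the tunnel exit (chr11:1947278-1984522), was at 14.4, 14.6, 13.7, 13.8 and 14.4 CPM with the EFNB2 guide and at 12.1, 13.1, 13.6, 13 and 13.6 CPM in the controls. The lowest EFNB2 library (13.7 CPM) was barely above the highest controls (13.6 CPM), and the call was lost in 11 of 21 other settings (log2 fold change 0.12, SE 0.04, adjusted p = 0.0421). MRPL9, a counterpart of bacterial L9 (chr1:151759643-151763564), was at 77, 73.8, 75, 79.5 and 73.1 CPM against 71.6, 68.5, 70, 70.7 and 69.9 CPM (log2 fold change 0.11, SE 0.03, adjusted p = 0.00443). MRPL20, MRPL34 and MRPS5 rose with overlapping libraries (log2 fold changes 0.12, 0.11 and 0.08, adjusted p = 0.0201, 0.0155 and 0.0429), and MRPS5 lost its call in 13 of 21 settings.

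Other members that start back to back with a gene within 100 bases are given beside their partner. Of all tested genes, 22.8% were higher and 22.6% lower, so unlike calls are common in any pair. Differences between a member and its partner were not tested. MRPL36 was lower (-0.19, adjusted p = 0.00012) and its partner NDUFS6, a subunit of complex I, did not pass (-0.04, adjusted p = 0.276). MRPS34, MRPL30 and MRPL10 were lower, while EME2, MITD1 and LRRC46 did not pass (adjusted p = 0.745, 0.653 and 0.627). In MRPL47 the member did not pass (-0.05, adjusted p = 0.0698) and NDUFB5, another subunit of complex I, was lower (-0.12, adjusted p = 0.0104). MRPL18, MRPL57 and MRPL52 did not pass either, beside TCP1 (0.09, adjusted p = 0.00358) and SKA3 (0.27, adjusted p = 0.000826), which were higher, and SLC7A7 (-0.62, adjusted p = 0.000232), which was lower. In the pair of MRPL21 and IGHMBP2 neither passed.

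By place in the large subunit, the stalk that receives translation factors held MRPL10, MRPL11 and MRPL12. MRPL10 was lower (log2 fold change -0.13, SE 0.02, adjusted p = 0.000469), and MRPL11 did not pass (-0.02, adjusted p = 0.682). MRPL12, which has also been described as a partner of the mitochondrial RNA polymerase (chr17:81703357-81707526), was at 5.31, 5.33, 5.04, 5.61 and 5.24 CPM with the EFNB2 guide and at 5.54, 6.15, 5.63, 5.56 and 6.58 CPM in the controls. Its groups overlapped in library D of the EFNB2 guide, and the fit did not pass (-0.15, SE 0.07, adjusted p = 0.0805), while an unadjusted two-sided exact permutation test of the log2 CPM over the 10 libraries gave p = 0.0238.

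Of the 6 members around the exit of the peptide tunnel, MRPL17, MRPL24 and MRPL45 were lower, MRPL23 was higher, and MRPL22 and MRPL47 did not pass (adjusted p = 0.0652 and 0.0698). Their median was -0.07 on the log2 scale. Of the 8 members of the central protuberance, MRPL27 and MRPL46 were higher, MRPL40 was lower (-0.16, SE 0.04, adjusted p = 0.00249), and MRPL18, MRPL38, MRPL48, MRPL55 and MRPL58 did not pass, with a median of 0.09. MRPL38, singled out after its values were seen, was at 3.31, 3.85, 3.8, 3.73 and 4.31 CPM with the EFNB2 guide and at 4.27, 3.41, 2.54, 2.57 and 2.53 CPM in the controls. Controls A and B were above the other 3. The log2 fold change was 0.31 (SE 0.14, adjusted p = 0.0788) with all libraries, and it passed without control A, without both A libraries and with no filter on low counts.

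The 2 members with the highest levels per kb were both lower. MRPS16, the counterpart of bacterial S16 (chr10:73248843-73252693), was at 175, 167, 167, 170 and 167 CPM with the EFNB2 guide and at 192, 193, 205, 197 and 192 CPM in the controls. MRPS34 was at 126, 119, 116, 115 and 117 CPM against 129, 133, 137, 135 and 139 CPM. Neither had overlapping groups (log2 fold changes -0.21 and -0.18, SE 0.03 each, adjusted p = 6.25e-06 and 0.000119).

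The 3 relatives of bacterial S18 are alternatives of a kind: MRPS18C (outside the rule, since its symbol ends in C) holds the place of S18 in the small subunit, MRPS18B another place there, and MRPS18A a place in the large subunit. MRPS18B (chr6:30617709-30626395) was at 77.5, 74.2, 74.8, 75.3 and 74.6 CPM with the EFNB2 guide and at 78.6, 79.4, 82.7, 79.5 and 79.2 CPM in the controls, and was lower (log2 fold change -0.09, SE 0.02, adjusted p = 0.00965). MRPS18A (chr6:43671303-43687791) had the same log2 fold change with more spread, at 38.3, 37.8, 37.1, 36.5 and 37.8 CPM against 35.5, 40.6, 42.5, 40.5 and 40.7 CPM. Its control library A lay below every library of the EFNB2 guide, and it did not pass (adjusted p = 0.0799). MRPS18C (chr4:83455932-83469735) was at 10.2, 9.26, 9.72, 10.1 and 10.2 CPM against 9.55, 9.1, 9.75, 10.1 and 10.7 CPM, with mixed groups (0.01, SE 0.05, adjusted p = 0.908).

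Members were also counted by whether they have a counterpart in the bacterial ribosome. MRPS18A and MRPS18B, though relatives of S18, were counted among those without one. Of 44 tested with a counterpart, 17 were lower and 7 higher (median log2 fold change -0.07), and of 31 without one, 13 were lower and 1, MRPL46, was higher (median -0.05). The difference in rises was not tested. Of all tested members 39.5% were lower and 10.5% higher, and of all tested genes 22.6% and 22.8%. The shares of falls by counterpart, 38.6% with and 41.9% without, were close to that of all members. Among 13 members in which inherited variants are known to cause combined deficiency of oxidative phosphorylation, MRPS7, MRPS14, MRPS16, MRPS34, MRPL3, MRPL24 and MRPL44 were lower (log2 fold changes from -0.23 to -0.10) and 0 were higher. In this list 53.8% were thus lower, and the difference from the share of all members was not tested. MRPS2, MRPS22, MRPS23, MRPS25, MRPS28 and MRPL12 did not pass (adjusted p from 0.0579 to 0.643). Besides MRPS18C, 5 mitoribosomal proteins have symbols that the rule does not reach. AURKAIP1 was higher (0.11, SE 0.03, adjusted p = 0.0186), CHCHD1 and GADD45GIP1 were lower (-0.17 and -0.15, adjusted p = 0.00595 and 0.00268), and DAP3 and PTCD3 did not pass (adjusted p = 0.716 and 0.268).

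The partners of the mitoribosome are given by list, beside the 22.6% lower and 22.8% higher of all tested genes. Falls outnumbered rises among assembly factors, translation factors, synthetases and import genes, with medians from -0.07 to -0.04. Mitochondrial messenger RNAs and nuclear regulators held more rises than falls. Differences between the lists and the members were not tested. Of its ribosomal RNAs, MT-RNR1 of the small subunit was lower (log2 fold change -0.28, SE 0.10, adjusted p = 0.0299 in the model of edgeR). Its level was 530 ± 71.4 against 644 ± 106 CPM (mean ± SD of the libraries, n = 5 each). MT-RNR2 did not pass (-0.17, adjusted p = 0.164). Libraries were made from poly(A) RNA, which bears on how well ribosomal RNA is measured. Of the 13 messenger RNAs that the mitoribosome translates, 0 were lower and 2 were higher, with a median of 0.07. The rises were MT-ND6 (0.25, SE 0.07, adjusted p = 0.00813) and MT-ATP8 (0.17, SE 0.06, adjusted p = 0.0474). In all 13 the libraries of the EFNB2 guide overlapped with the controls.

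Of 29 assembly factors and ribosomal RNA modifying enzymes, 11 were lower and 7 higher. MRM1, a methyltransferase of the large ribosomal RNA (-0.35, adjusted p = 1.79e-05), and YBEY, an endonuclease of ribosomal RNA (-0.30, adjusted p = 3.91e-07), fell most. NGRN (0.28, adjusted p = 1.11e-05, on chromosome 15) and METTL17 (0.22, adjusted p = 0.00383), a factor of small subunit assembly, rose most. Of 14 translation factors, 6 were lower, led by the initiation factor MTIF3 (-0.19, adjusted p = 0.0122) and the recycling factor MRRF (-0.15, adjusted p = 0.000497), and only the release factor relative C12orf65 was higher (0.38, adjusted p = 1.43e-07).

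Of 17 mitochondrial aminoacyl-tRNA synthetases, 5 were lower and 2 higher, with NARS2 (-0.21, adjusted p = 0.00135) the largest fall. SARS2 (0.27, adjusted p = 0.0455), which shares exon bases with MRPS12 on the opposite strand, and AARS2 (0.22, adjusted p = 0.000592) were the rises. Of 18 genes for protein import, 7 were lower and 2 higher: the peptidase MIPEP (-0.30, adjusted p = 0.00441) and DNAJC19 (-0.21, adjusted p = 0.000104) fell most, and TIMM44 (0.11, adjusted p = 0.0114) and TOMM40 (0.07, adjusted p = 0.0347) rose.

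Of 10 genes that transcribe or copy mitochondrial DNA, 4 were lower and 3 higher. POLG, the DNA polymerase of mitochondria, rose most (0.52, adjusted p = 1.38e-10, on chromosome 15), then TOP1MT (0.18, adjusted p = 0.00893), and TFB2M (-0.24, adjusted p = 9.44e-06) and the helicase TWNK (-0.15, adjusted p = 0.000449) fell most.

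Among 10 nuclear regulators of mitochondrial genes, 5 were higher and 3 lower. PPARGC1A, a coactivator of mitochondrial biogenesis, rose most (log2 fold change 1.63, SE 0.26, adjusted p = 9.69e-05 in the model of edgeR). Its level was very low, at 0.531 ± 0.1 against 0.171 ± 0.0623 CPM (mean ± SD of the libraries, n = 5 each). GABPB2 came next (0.19, adjusted p = 0.0158). MYC fell most (-1.16, SE 0.08, adjusted p = 1.08e-08, 7.22 ± 1.06 against 16.2 ± 0.808 CPM), followed by PPARGC1B (-0.29, adjusted p = 2.52e-05). Of the other factors whose motifs were searched above, this list held GABPA, NRF1 and YY1. GABPA was lower (-0.28, SE 0.03, adjusted p = 6.91e-06), while GABPB1, on chromosome 15, was higher (0.12, SE 0.03, adjusted p = 0.00618). NRF1 was higher (0.16, SE 0.04, adjusted p = 0.00713) and YY1 did not pass (-0.05, SE 0.03, adjusted p = 0.105). Factors of the remaining motifs were not in the list. Whether these factors have a part in the values of the members was not tested.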

How the data were processed

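Poly(A) RNA of 10 libraries was sequenced with a strand-specific kit, per the labels' protocols. STAR 2.27a, Partek, DESeq2 and the build GRCh38 appear in the submitters' processing notes. Annotation and strand setting: not given in the sources used here. Raw counts deposited by the authors gave all main values. A normalized signal, likewise deposited, was used only in an alternative, as log2(value + 1). Of 60577 rows, 3 named only by numbers were left out (at most 7e-05% of counts), and 17834 genes passed filterByExpr.

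Guides were compared with edgeR 4.0.16 (R 4.3.3), quasi-likelihood test, TMM scaling, guide as the only term, Benjamini-Hochberg adjustment over all tested genes, threshold 0.05. The SE is the absolute log2 fold change over the square root of F. CPM divide each count by the library size after TMM scaling. The common biological coefficient of variation was 0.0489. Alternatives were other scalings and filters, a replicate block, left-out libraries or genes, limma 3.58.1, DESeq2 1.42.0 and the deposited signal.

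Named are the 6 largest falls and up to 6 largest rises without overlap between guides, members on chromosome 15 or in head-to-head pairs, the S18 relatives, MRPL12, the extremes of level, and the 2 largest changes each way of each list, of which 1 is not reported here. The members and lists were chosen with earlier results of these data known. MRPL55 was moved to the proteins without a bacterial counterpart after the lists were drawn up. MRPS30 and MRPL38 were added after their values were seen.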

Additional observations from a re-analysis of the deposited data

Results flagged for a closer look

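In each member and guide, a library was looked for whose distance to its nearest neighbour took up more than 0.71 of the range of the 5 libraries. This was so in 10 of 152 groups, and chance gives about 1 in 20. Library A of the EFNB2 guide stood high in MRPL14 (28.7 CPM, next 27.3), MRPL35 (74.8 CPM, next 70.3) and MRPL41 (45.9 CPM, next 40.2). Library C of the controls stood high in MRPL32 (84 CPM, next 80.7), MRPL41 (52.7 CPM, next 46.6), MRPL57 (20.6 CPM, next 19.2) and MRPS18B (82.7 CPM, next 79.5). Library A of the controls stood low in MRPS18A (35.5 CPM, next 40.5) and MRPS26 (50.8 CPM, next 53.8), and library E of the EFNB2 guide stood high in MRPL22 (21 CPM, next 20.3). The falls of MRPL32, MRPL35, MRPL41 and MRPS18B passed the threshold in all 21 other settings, among them those without these libraries.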

How the results depend on the processing

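No value past the threshold changed direction in the settings run, and values that did not pass changed sign in 31 cases. Falls of members numbered 27 to 40 (30 in the report) and rises 4 to 11 (8 in the report). Of the 30 falls 26, and of the 8 rises 4, passed in every setting that tested them. Among these rises, MRPL46 and MRPS11 were not tested in the setting with chromosome 15 left out. Calls were lost most often by MRPS5 (13 settings), MRPL51 (12), MRPL23 (11), MRPL17 (7) and MRPL50 (7), and 17 of the 38 members that did not pass did so in some setting. With the deposited signal, 4 members rose, 1 of the small and 3 of the large subunit, and the medians were -0.08 for all members and -0.11 for the small subunit. There 43.1% of all calls were rises, against 50.3% in the report. Small subunit rises were 1 in place of 2 (without MRPS5 or, with chromosome 15 left out, without MRPS11) under RLE scaling, no filter, DESeq2 and chromosome 15 left out. Leaving out each library in turn gave 1 to 2 small subunit rises, 6 to 10 rises and 27 to 36 falls of members, and medians from -0.06 to -0.04, the last without control C. The letters A to E did not pair the libraries: deviations of same-letter libraries correlated at -0.24 for A and between -0.09 and 0.00 for B to E. With the letters as a replicate block, 5 members rose (1 small, 4 large) and 27 fell. Leaving out both A libraries, chosen with earlier results known, gave 10 rises and 40 falls, while calls over all genes rose from 8098 to 9854. Other scalings moved the median of all genes by at most 0.025 on the log2 scale. MRPL53 was too low for any fold change, and values under 3 counts (0.0537 to 0.0627 CPM) cannot be told from 0.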
